A study of Mus musculus with 69 samples.

Results

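Clustered distal open regions are stretches of accessible chromatin that lie close together and away from gene starts. They were chosen by a rule applied to the 6 ATAC-seq peak lists of the series. The lists were merged into 89596 regions wherever peaks overlapped by at least 1 bp. Of these, 62202 regions held a peak in both WT lists, and 37552 of those lay more than 1 kb from every annotated transcription start site (TSS) on the autosomes other than chromosome 11. Distal regions separated by gaps of 5 kb or less were joined into chains, and the 317 regions in chains of at least 4 were the members. They formed 69 chains, of which 50 held 4 regions, 11 held 5 and 8 held 6 or more, the last with 62 members. The other 37235 distal regions, open in both WT lists but in chains of 3 or fewer, served as the comparison.

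The cells were J1 mouse embryonic stem cells (ESCs), a male line. In the clones Mut18 and Mut43, both alleles of H3f3a and of H3f3b had been edited with CRISPR-Cas9 so that histone H3.3 carries arginine in place of lysine 27 (H3.3K27R), and WT cells carried no edit. Each mutant line was 1 clone, and all lines grew on feeder cells and were passaged without feeders before harvest. WT, Mut18 and Mut43 each had 2 ATAC-seq and 2 mRNA-seq libraries. The question for these regions was whether clusters of open chromatin remained, and at what strength, in cells whose H3.3 could not be acetylated at lysine 27, and whether the nearest genes changed.

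Enhancers are distal sequences at which transcription factors displace nucleosomes, and the exposed DNA can be cut by the Tn5 transposase used in ATAC-seq. Dense clusters of strong enhancers, called super-enhancers, lie near genes that define cell identity, and in ESCs these include the pluripotency factors. Super-enhancers are usually defined from ChIP-seq of coactivators or acetylated histones, neither of which was used here, so the chains below are defined by spacing alone. ATAC-seq reports accessibility and not enhancer activity. DNA that is present in several similar copies is a known difficulty for short reads, because a read that fits several copies cannot be given to one of them with certainty.

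The ATAC-seq lists held from 63588 to 78536 peaks, with WT replicate 1 the highest. Read depth per list is not in the files used here. The lowest local background in a list, which scales with depth, was 3.36 reads in WT replicate 1 and from 2.01 to 2.28 reads in the other 5 lists. The mRNA-seq libraries held from 14992756 to 15143998 counts. The edited genes remained expressed, which does not check the edit, since a point change is not visible in counts. H3f3a had 10509.7 and 10937 normalized counts in the WT libraries and from 8436 to 9560 in the mutants. H3f3b had 12378 and 12397.5 in the WT libraries, 11655 and 12026 in Mut18 and 13556 and 13386 in Mut43. The summed normalized counts of 10 ESC markers ran from 59763 to 70399, and none of the 10 was called changed. The summed counts of 10 fibroblast markers, which feeder cells express, were 4352 and 2936 in WT and from 1949 to 2559 in the mutants. Of those 10 genes, Col3a1, Dcn, Postn and Col6a3 were lower in the mutants and none was at 0 in every library. The study calls its duplicates biological without saying what separated them, so p-values measure the spread between these libraries.

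The largest chains were concentrated on mouse chromosome 6. In mm10 (GRCm38) coordinates, the chain with the most members spanned chr6:47739656-47778681 and held 11 regions, with Pdia4, a protein disulfide isomerase of the endoplasmic reticulum, as the nearest gene of the count table. A chain of 8 regions at chr6:47654831-47686568 lay nearest Ezh2, the catalytic subunit of the H3K27 methyltransferase PRC2. Chains of 10 and 7 regions at chr6:114582216-114611908 and chr6:114543061-114567665 lay nearest Atg7, an enzyme required for autophagy. A chain of 7 at chr6:114497201-114516905 lay nearest Hrh1, a histamine receptor. Outside chromosome 6, the largest were a chain of 7 at chr7:24840223-24857272 near Dmrtc2, a chain of 6 at chr5:142920803-142938635 near Actb, which encodes β-actin, and a chain of 6 at chr10:77191055-77207043 near Col18a1, which encodes a basement membrane collagen. Chains of 5 at chr6:125416872-125434126 near Cd9 and at chr15:81507283-81523646 near Rbx1 completed the 10 largest. Across the 69 chains the span ran from 3139 to 39026 bp, with a median of 10350 bp. Chromosome 6 carried 11 chains with 69 members, which were 3.11% of its distal regions, and on every other chromosome with a chain the share was between 0.192% and 1.23%.

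The sequence under these chains is shown here because it bears on what the peaks count. The windows below are 300 bases of the GRCm38.p6 plus strand, centred on the summit of the strongest WT peak of the chain. The strongest member of the Hrh1 chain at chr6:114516539-114516838 and that of the Atg7 chain of 10 at chr6:114604376-114604675 both lie in intergenic sequence. The capitals mark the longest run that both windows share, which is 196 bases.
Hrh1 chain: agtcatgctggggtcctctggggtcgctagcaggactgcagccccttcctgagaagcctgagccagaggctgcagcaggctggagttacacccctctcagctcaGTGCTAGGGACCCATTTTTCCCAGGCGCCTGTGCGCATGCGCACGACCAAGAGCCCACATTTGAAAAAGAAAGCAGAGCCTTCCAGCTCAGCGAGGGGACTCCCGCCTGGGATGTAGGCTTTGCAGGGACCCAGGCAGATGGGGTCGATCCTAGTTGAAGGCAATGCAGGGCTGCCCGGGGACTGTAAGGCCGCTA
Atg7 chain: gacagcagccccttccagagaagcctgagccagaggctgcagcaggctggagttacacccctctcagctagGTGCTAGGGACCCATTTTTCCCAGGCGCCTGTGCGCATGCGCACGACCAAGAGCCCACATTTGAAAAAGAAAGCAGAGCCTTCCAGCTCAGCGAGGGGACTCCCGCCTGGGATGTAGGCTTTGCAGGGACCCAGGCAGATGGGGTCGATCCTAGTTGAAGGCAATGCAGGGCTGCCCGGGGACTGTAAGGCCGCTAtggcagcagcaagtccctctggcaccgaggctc
The strongest members of the Ezh2 chain, at chr6:47685318-47685617, and of the Pdia4 chain, at chr6:47778306-47778605, also lie in intergenic sequence. The capitals mark their longest shared run, of 37 bases.
Ezh2 chain: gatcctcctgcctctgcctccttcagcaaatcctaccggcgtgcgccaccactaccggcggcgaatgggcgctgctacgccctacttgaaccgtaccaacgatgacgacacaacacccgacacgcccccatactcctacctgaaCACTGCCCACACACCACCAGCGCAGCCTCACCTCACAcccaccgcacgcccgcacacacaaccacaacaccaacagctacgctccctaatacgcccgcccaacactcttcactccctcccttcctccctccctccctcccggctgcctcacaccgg
Pdia4 chain: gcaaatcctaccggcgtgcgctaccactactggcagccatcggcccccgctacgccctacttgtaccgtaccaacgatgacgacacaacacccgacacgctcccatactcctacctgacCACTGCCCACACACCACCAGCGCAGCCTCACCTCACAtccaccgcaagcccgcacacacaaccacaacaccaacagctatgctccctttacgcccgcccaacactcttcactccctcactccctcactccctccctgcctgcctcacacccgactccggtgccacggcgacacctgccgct

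Near-identical copies were then counted over all members. A window was said to have a copy if it aligned to the window of another distal region over at least 150 bases at 90% identity or more. Of the 317 members, 58 had a copy within their own chain, and 46 of the 58 were on chromosome 6. These lay in 10 of the 69 chains, and in 6 of the 10 every member had a copy. The share with a copy in the same chain was 2.73% of regions in chains of 2, 4.33% in chains of 3, 8 of 200 in chains of 4, 9 of 55 in chains of 5 and 41 of 62 (66.1%) in chains of 6 or more. The number of regions in a chain itself raises the number of windows that could match. Counting copies anywhere within 150 kb in place of the same chain, 18.6% of members had one and 4.40% of the other distal regions did.

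**Figure D1:**
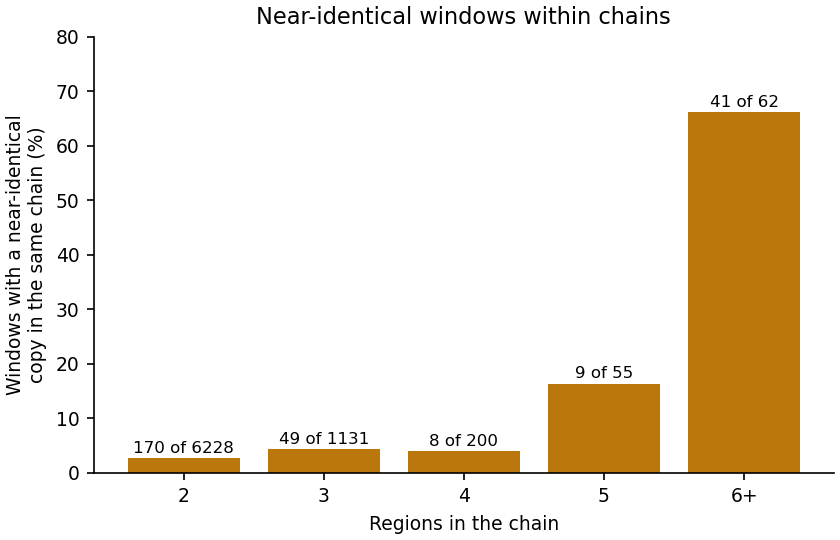
Share of 300-base windows with a near-identical copy in the same chain (y axis, %) by the number of regions in the chain (x axis), with the counts above the bars. The bars for chains of 2, 3 and 4 stay below 5%, and the bar for chains of 6 or more reaches 66.1%.

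The chains with copies fell mostly into 2 stretches of chromosome 6. From Hrh1 to Atg7, at chr6:114497201-114629560, 4 chains with 29 members lay within 132360 bp and all 29 members had a copy in their chain. Across these 4 chains 147 pairs of windows matched, at a median identity of 98.6%. From Ezh2 to Pdia4, at chr6:47654831-47778681, 2 chains with 19 members lay within 123851 bp and 17 members had a copy. Across them 71 pairs matched at a median identity of 98.9%. Smaller sets of copies lay in a chain near Zfp825 on chromosome 13, with 4 of 5 members, and in a chain near Sik3 on chromosome 9, with all 4 members. How the authors treated reads that map to several places was not given in the sources used here, so whether each of these copies is open, or some of them share the same reads, was not tested.

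Most members kept their peaks in H3.3K27R cells. In Mut18 replicates 1 and 2, 85.8% and 89.6% of the 317 members held a peak, and in Mut43 replicates 1 and 2 the shares were 90.9% and 87.7%. The other distal regions held a peak in 83.2%, 87.7%, 86.4% and 84.0% of cases in the same 4 lists. Members were therefore above the comparison in each of the 4 mutant lists, by 3.20 ± 1.13 percentage points (mean ± SD, n = 4). An exact two-sided permutation test that flips the sign of the 4 differences gave p = 0.13, the smallest that 4 libraries allow. The 4 libraries are 2 from each clone and score the same 317 members, so they are not independent. The p-value describes agreement among these libraries and does not extend to other clones or regions. The WT lists entered no test because they chose the regions. The excess depended on that choice: it was -0.58 points where a peak in WT replicate 1 alone was required, and -0.67 points where chains of 3 were counted as members.

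**Figure D2:**
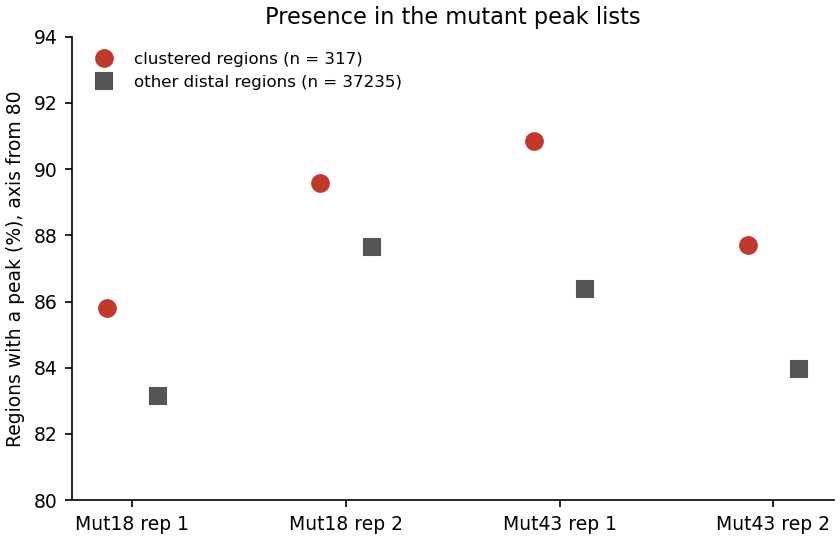
Share of regions with a peak (y axis, %, starting at 80) in each of the 4 mutant lists (x axis), for the 317 clustered regions (circles) and the 37235 other distal regions (squares). The circles lie between 85.8% and 90.9% and above the square of the same list in all 4 lists.

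In all 4 mutant lists at once, 247 of the 317 members (77.9%) held a peak, beside 74.3% of all distal regions open in WT. A further 29 members were in 3 mutant lists, 17 in 2 and 13 in 1. No mutant list held a peak for 11 members (3.47%), beside 5.85% of all distal regions. The 5 of these with the highest WT percentile lay at chr1:7045384-7045559, chr6:127514012-127514270, chr1:135668412-135668593, chr6:136475551-136475721 and chr12:4547481-4547809. All 5 belonged to chains of 4, and their percentiles of fold enrichment in the WT lists were between 7.63 and 37.3. These are low among all peaks of a list. Beside the median member, at 18.0 and 15.8 in the WT lists, the first 3 lay above in both lists and the last 2 below.

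The shares of members found in 1 clone alone were near those of all distal regions. A peak in both Mut18 lists and neither Mut43 list was held by 2 members (0.631%, background 0.98% of all distal regions). The reverse was held by 4 (1.26%, background 0.908%). The mean share with a peak was 1.58 percentage points higher in Mut43 than in Mut18, which was within the spread of the 2 lists of a clone (exact permutation test, two-sided p = 0.667; 2 against 2 lists allow no p under 0.33).

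The strength of a peak can be read in several ways, and the rank of these regions turned with the choice. Column 7 of each list holds the fold enrichment of the summit over its local background, and its rank within the list is given here as a percentile in which 100 is the strongest peak. The median member stood at 18.0 and 15.8 in the WT lists, at 16.6 and 19.1 in Mut18 and at 17.7 and 17.7 in Mut43. The median of the other distal regions lay between 55.9 and 61.0 in all 6 lists. The difference over the mutant lists was -41.4 ± 0.51 percentile points (SD, n = 4; lower in 4 of 4). The rule chose regions with close neighbours, whose reads can count toward the local background, so this rank is not independent of the rule and is given as a description with no test. For the same reason this rank cannot decide whether the name super-enhancer applies to these regions. In the fold values themselves, the median member had from 4.89 to 5.64 in the 6 lists and the median of the others from 7.57 to 8.32.

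By the number of reads at the summit, members ranked high. Each deposited fold and -log10 p could be solved for a whole-number read pileup at the summit and for the local background, and 100% of peaks in all 6 lists gave a whole number within a tolerance of 0.0005 in -log10 p. By pileup, the median member stood at percentile 76.5 and 70.8 in the WT libraries, 76.1 and 78.1 in Mut18 and 76.1 and 76.3 in Mut43. The others lay between 41.0 and 48.4. Members were higher by 29.4 ± 1.01 percentile points in the mutant lists (4 of 4). The pileup rank also followed the number of regions in a chain, so it is not independent of the rule and is given with no test. The local background, as a multiple of the lowest background in the list, was 3.68 and 3.95 at the median member in WT and from 4.00 to 4.11 in the mutants, beside 1.33 to 1.43 for the other distal regions. Members thus had more reads at the summit and more reads around it, and the ratio of summit to surroundings was lower. By -log10 q, which rises with both depth and ratio, members and others differed by 0.20 ± 0.78 percentile points, also given with no test.

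By the number of regions in a chain, which is the rule's own variable, the same measures are given as a description. For single distal regions the median fold percentile was between 60.1 and 66.7 in the 6 lists, for chains of 2 between 33.2 and 38.6, and for chains of 6 or more between 7.23 and 10.1. The median pileup percentile ran the other way, from between 38.4 and 46.6 for single regions to between 93.0 and 94.7 for chains of 6 or more. The background rose from 1.19 to 1.28 multiples of the floor for single regions to between 6.08 and 7.07 for chains of 6 or more. Just outside the threshold, the 1131 regions in chains of 3 had fold percentiles between 19.5 and 24.4, and just inside it the 200 regions in chains of 4 had between 19.3 and 24.8. The same 2 classes had pileup percentiles of 58.9 to 64.5 and 64.4 to 74.6. In the mutant lists, from 81.2% to 86.9% of regions in chains of 3 held a peak, and from 84.5% to 89.5% of those in chains of 4.

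**Figure D3:**
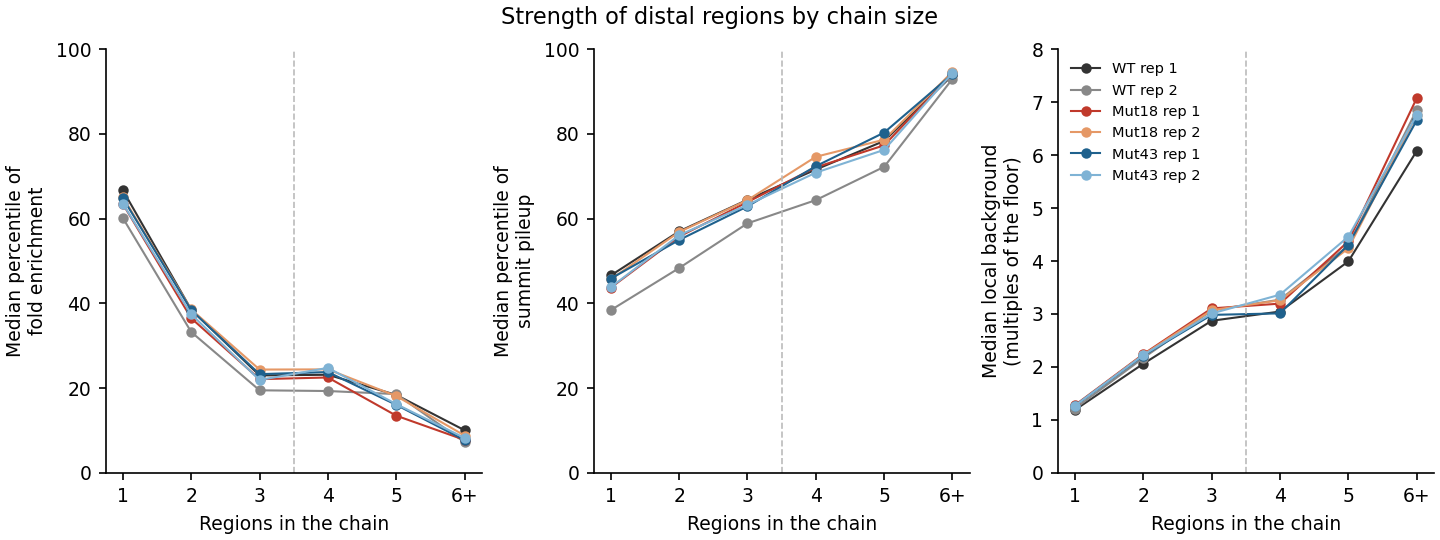
Median percentile of fold enrichment (left), median percentile of summit pileup (middle) and median local background in multiples of the list's lowest background (right), by the number of regions in the chain (x axis), with 1 line for each of the 6 libraries. The dashed line marks the threshold between 3 and 4 regions. The 6 lines run close together, falling on the left from between 60.1 and 66.7 to between 7.23 and 10.1 and rising in the other panels.

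Because a strong peak is more likely to be called again, presence was compared within 4 equal bins of distal regions by WT strength, bin 1 the weakest. In bin 1 by WT fold, 85.6% of 227 members and 74.1% of the others were found in a mutant list on average, a difference of 11.5 percentage points. Bins 2 and 3 differed by 16.3 and 9.71 points in the same direction (4 of 4 lists in each of bins 1 to 3), and bin 4, with 12 members, by -2.75 points. In bins of WT pileup the direction was the opposite from bin 2 on. In bin 3, 75.6% of 78 members and 94.9% of the others were found, a difference of -19.3 points (0 of 4 lists above 0), and in bin 4, which held 194 members, the shares were 96.4% and 98.8%. Members had more reads at a given fold and more background at a given pileup, and in bin 1 by fold their median mutant percentile was 10.6, beside 20.3 in the others, so the bins did not match members with like regions. These differences are a description and were not tested.

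Shifts in strength between WT and mutants were counted next. Among the 247 members with a peak in all 6 lists, all 4 mutant percentiles of fold lay below both WT percentiles for 37 (14.98%, background 14.4%), and above both for 21 (8.50%, background 8.15%). For pileup over the floor, 4 members lay below (1.62%, background 5.98%) and 43 above (17.4%, background 17.2%). Apart from the lower count for pileup, these shares were near those of all distal regions. The median member had a pileup of 19.4 and 23.4 times the floor in the WT lists and from 23.3 to 24.9 in the mutants, so the groups overlapped. The median fold percentile of members was 0.17 points lower in Mut43 than in Mut18 (exact permutation p = 1).

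Members with a near-identical copy were found in the mutants more often than those without. The 58 with a copy in their chain held a peak in 96.6%, 96.6%, 98.3% and 96.6% of cases in the 4 mutant lists, and the 259 without in 83.4%, 88.0%, 89.2% and 85.7%. Their median pileup percentile was between 95.0 and 96.8 in the 6 lists, with a background between 6.26 and 7.22 times the floor. Without a copy it was between 66.1 and 74.6, with a background between 3.31 and 3.61 times the floor. When regions with a copy in their own chain were left out of both members and others, the excess in presence over other distal regions was 1.31 ± 1.23 points (exact permutation p = 0.13), less than the 3.20 points over all members. The fold rank then differed by -37.9 points and the pileup rank by 25.6 points, so both kept their direction. In the Ezh2 to Pdia4 stretch, the background was between 10.9 and 13.99 times the floor, the median fold percentile was between 1.01 and 2.27, and the median pileup percentile between 99.4 and 99.6. In the Hrh1 to Atg7 stretch, the background was between 5.61 and 6.08 times the floor and the fold percentile between 11.02 and 14.5.

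The printed windows differed among themselves. The Ezh2 window had a pileup of 138 and 95 reads in the WT libraries, 118 and 119 in the 2 Mut18 libraries, 111 and 103 in those of Mut43, over a background of 9.10 to 11.7 times the floor, and its fold was from 4.28 to 4.84. The Pdia4 window had 110 and 75 reads in WT and from 74 to 84 in the mutants, and its lower background of 3.82 to 4.57 gave a fold of 7.36 to 8.45. The Atg7 window had 108 and 93 reads in WT and from 83 to 97 in the mutants, with a fold of 7.25 to 9.40. The Hrh1 window had 103 and 92 reads in WT and from 86 to 99 in the mutants, with a fold of 5.58 to 7.91. A high pileup thus came with a low fold percentile in the Ezh2 window, where it was from 4.05 to 11.6, and not in the Atg7 window, where it was from 56.5 to 74.0. For the Pdia4, Atg7 and Hrh1 windows the mutant range reached to or past the lower WT library. In the Ezh2 window every mutant value lay between the 2 WT values. In unscaled reads the groups thus overlapped in each window. These pileups are reads as counted in each list and are not scaled for depth. WT replicate 1 had the highest floor of background, 3.36 reads beside 2.01 to 2.28 in the other lists. The overlap therefore does not show whether values scaled for depth would overlap.

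Chains as wholes were retained to different degrees. In 23 of the 69 chains every member held a peak in all 4 mutant lists, among them the Ezh2, Hrh1, Actb and Cd9 chains and the Atg7 chain of 7. Of all distal regions, 74.3% held a peak in all 4 mutant lists. No such count was made for groups of other distal regions, so the counts by chain are a description. Among the large chains, the Pdia4 chain held 10 of 11 members in each mutant list, and the Atg7 chain of 10 held 8 and 8 in Mut18 and 9 and 10 in Mut43. The Dmrtc2 chain was the least retained of the 10 largest, with 4 and 6 of 7 members in Mut18 and 5 and 4 in Mut43. The next 3 chains were picked for their low values. The chain of 5 near Rhbg, an ammonium transporter gene, at chr3:88231102-88246130, was the least retained of all. It held 2 and 2 members in Mut18 and 2 and 3 in Mut43, or 45% of member and library combinations. The chain of 4 near Smug1, a DNA repair glycosylase gene, at chr15:103177078-103183610, held 2 of 4 in every mutant list. The chain of 4 near Gpx6 at chr13:21322017-21330078 held 4 and 2 in Mut18 and 2 and 1 in Mut43. Regions with a peak in all 4 mutant lists and in neither WT list numbered 657, counted without the distance and chromosome limits. None of them lay inside a chain. The 69 chains are short, with a median span of 10350 bp. This count therefore cannot tell whether clusters gain open regions less often than other sequence.

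**Figure D4:**
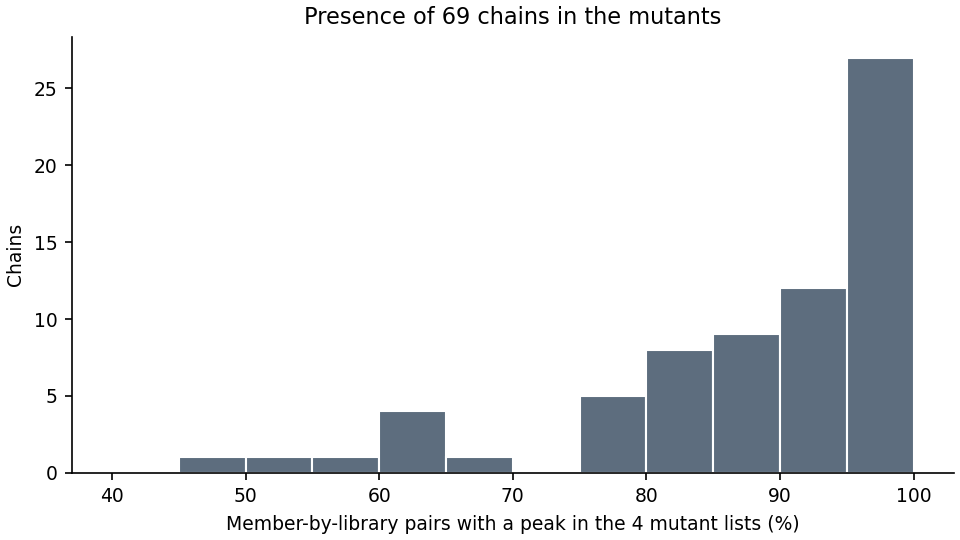
Histogram of the 69 chains by the share of member and mutant library combinations that held a peak (x axis, %; y axis, number of chains). The lowest chain stands at 45%, and the rightmost bin, from 95% to 100%, includes the 23 chains with every member in all 4 mutant lists.

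Clustered regions lay between genes more often than the other distal regions, which is given as a description with no test. Of the 317 summits, 242 (76.3%) were intergenic, 66 (20.8%) intronic and 9 (2.84%) exonic, whereas the other distal summits were 50.9% intergenic, 43.1% intronic and 6.05% exonic. Their median distance to a TSS was 14264 bp, beside 12394 bp, and the median region was 333 bp wide, beside 387 bp. The median GC content of the window was 55.7%, beside 53% in the others, and reached 60.8% in chains of 6 or more. The median number of CpG dinucleotides was 6 in members, 5 in the others and 10 in chains of 6 or more. On average 27.9% of the bases of a member window were soft-masked as repeats, beside 31.9% in the others. In chains of 6 or more the mean was 34.7%, and in the Hrh1 to Atg7 stretch it was 51.3%.

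Short motifs were searched on both strands of the windows by their exact letters, and no motif's letters contain another's. The octamer ATTTGCAT, which POU factors such as Oct4 bind, was in 7 member windows (2.21%) and 3.66% of all distal windows. The SOX motif AACAATG was in 9 (2.84%) and 4.56%. The ESRRB motif TCAAGGTCA was in 3 (0.946%) and 0.895%. The KLF motif GGGTGTGG was in 21 (6.62%) and 4.88%. The CTCF core CCACNAGGG was in 11 (3.47%) and 4.44%, and the GATA motif AGATAA in 18 (5.68%) and 9.17%. None of the 62 windows in chains of 6 or more held the octamer, the ESRRB motif or the CTCF core, and 41 of these windows have a copy in their chain. Examples of a match are shown for the chains near Actb and Cdx2, because these are the best known of the nearest genes. The Actb window at chr5:142938363-142938662 holds the KLF motif on the minus strand from base 200, and the Cdx2 window at chr5:147293198-147293497 holds the CTCF core on the minus strand from base 116. The capitals mark the motif as it reads on the plus strand.
Actb chain: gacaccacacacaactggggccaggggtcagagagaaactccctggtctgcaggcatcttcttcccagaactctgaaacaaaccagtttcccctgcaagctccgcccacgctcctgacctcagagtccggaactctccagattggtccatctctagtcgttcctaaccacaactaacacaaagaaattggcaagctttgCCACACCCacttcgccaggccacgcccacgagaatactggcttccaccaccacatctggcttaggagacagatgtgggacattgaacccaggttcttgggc
Cdx2 chain: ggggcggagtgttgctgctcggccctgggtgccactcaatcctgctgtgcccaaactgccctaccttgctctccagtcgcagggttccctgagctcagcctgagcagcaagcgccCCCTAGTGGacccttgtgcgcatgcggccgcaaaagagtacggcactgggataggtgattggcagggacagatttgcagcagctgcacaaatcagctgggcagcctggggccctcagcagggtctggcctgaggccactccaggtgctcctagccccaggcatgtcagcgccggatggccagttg
The Actb window had 79 and 52 reads at its summit in the WT lists, 52 and 57 in Mut18 and 61 and 57 in Mut43. The Cdx2 window had 80 and 61 reads in the WT libraries, 51 and 58 in Mut18 and 67 and 49 in Mut43. In both windows the WT and mutant values, which are reads not scaled for depth, overlapped.

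Genes near the chains were taken as the gene of the count table with the closest TSS, which does not show that a chain acts on it. The 69 chains had 67 nearest genes at distances from 0 to 575678 bp (median 22051 bp), with 11 chains over 50 kb away. Of the 67, 60 passed the filter on low counts and were tested with edgeR's quasi-likelihood test, fitted over 14061 genes. A gene was called at a Benjamini-Hochberg adjusted p below 0.05 and a change over 2-fold. In the mutants against WT, 2 of 60 nearest genes were higher (3.33%, background 3.28%) and 2 were lower (3.33%, background 5.65%). The median log2 fold change was -0.015 over the nearest genes and -0.0041 over all tested genes. The nearest genes of clustered regions were thus called about as often as any gene.

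Bcas1, an oligodendrocyte-associated gene first found amplified in breast cancer, had 66.4 and 59.8 normalized counts in the WT libraries, 190 and 232 in Mut18 and 207 and 233 in Mut43. The groups did not overlap (background 29.4% of all tested genes with every mutant above). The log2 fold change was 1.77 ± 0.13 (SE, edgeR adjusted p = 9.7e-10). Its chain of 4, at chr2:170252313-170266799 and 82941 bp from its TSS, held all 4 members in every mutant list. Fcgr2b, which encodes an inhibitory receptor for immunoglobulin G, had 23.4 and 20.6 in the WT libraries, 56.1 and 56.6 in Mut18 and 55.0 and 67.0 in Mut43. Its log2 fold change was 1.41 ± 0.22 (edgeR adjusted p = 1.9e-05), and its chain held 3 of 4 members in Mut18 replicate 1 and all 4 in the other mutant lists.

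The 2 genes called lower rested on WT replicate 1. Cd36, a fatty acid receptor, had 732 normalized counts in the WT libraries replicate 1, 8.82 in WT replicate 2, 8.01 and 9.10 in Mut18 and 3.05 and 13.2 in Mut43 (log2 fold change -5.45 ± 0.87, edgeR adjusted p = 3.1e-05). Fos, an immediate early transcription factor, had 210 and 32.3 in the WT libraries and from 34.4 to 37.5 in the mutants (-1.74 ± 0.40, edgeR adjusted p = 0.0011). In both genes WT replicate 2 lay within or below the mutant range, and without WT replicate 1 no nearest gene was called lower. WT replicate 1 also had the highest sum of fibroblast markers, 4352 beside 2936 in WT replicate 2, and the part of this in the 2 calls was not tested. The Cd36 and Fos chains held all 4 members in every mutant list. The first lay 193290 bp from the Cd36 TSS, and the annotation held a nearer protein-coding gene, Gnat3, at 119542 bp. The second lay 10896 bp from the Fos TSS.

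By the adjusted p alone, with no limit on the fold, 13 nearest genes were higher (21.7%, background 23.5%) and 16 lower (26.7%, background 24.5%). These counts include the genes called above. All mutant libraries lay above both WT libraries for 19 of 60 nearest genes (background 29.4%) and below both for 20 (background 30.4%). Igf2bp3, an RNA-binding protein of early development, came closest to the 2-fold limit among the lower genes that were not called. It had 1867 and 1920 normalized counts in the WT libraries and from 966 to 1043 in the mutants (log2 fold change -0.93 ± 0.04, edgeR adjusted p = 1.6e-12). Dmrt1, a regulator of germ cell and sex development, had 313 and 328 in the WT libraries and from 509 to 607 in the mutants (0.79 ± 0.08, edgeR adjusted p = 9e-08). These 2 genes were picked after their values were seen.

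Among the nearest genes of the 10 largest chains, none was called. Col18a1 had 6076 and 6097 normalized counts in the WT libraries and from 4700 to 4968 in the mutants (log2 fold change -0.34 ± 0.04, edgeR adjusted p = 2.3e-07). Actb had 35104 and 34778 in the WT libraries and from 30673 to 31885 in the mutants (-0.16 ± 0.03, edgeR adjusted p = 0.00047). Atg7 had 235 and 222 in the WT libraries and from 180 to 205 in the mutants (-0.25 ± 0.09, edgeR adjusted p = 0.033). In these 3 genes every mutant library lay below both WT libraries (background 30.4% of all tested genes), with changes well under 2-fold. For Atg7 the DESeq2 adjusted p was 0.14. Ezh2 (-0.04 ± 0.04), Pdia4 (0.09 ± 0.05), Cd9 (0.02 ± 0.04), Rbx1 (-0.05 ± 0.05) and Hrh1 (-0.56 ± 0.36) did not pass the adjusted p. Every mutant library lay below both WT libraries for Ezh2 and Hrh1 as well. Hrh1 was low throughout, with 10.7 and 17.6 normalized counts in the WT libraries and from 9.01 to 10.1 in the mutants. Dmrtc2 was below the filter and was not tested. It had 0.976 and 1.96 normalized counts in the WT libraries and from 6.01 to 9.13 in the mutants. The groups did not overlap (background 29.4% of all tested genes with every mutant above).

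**Figure D5:**
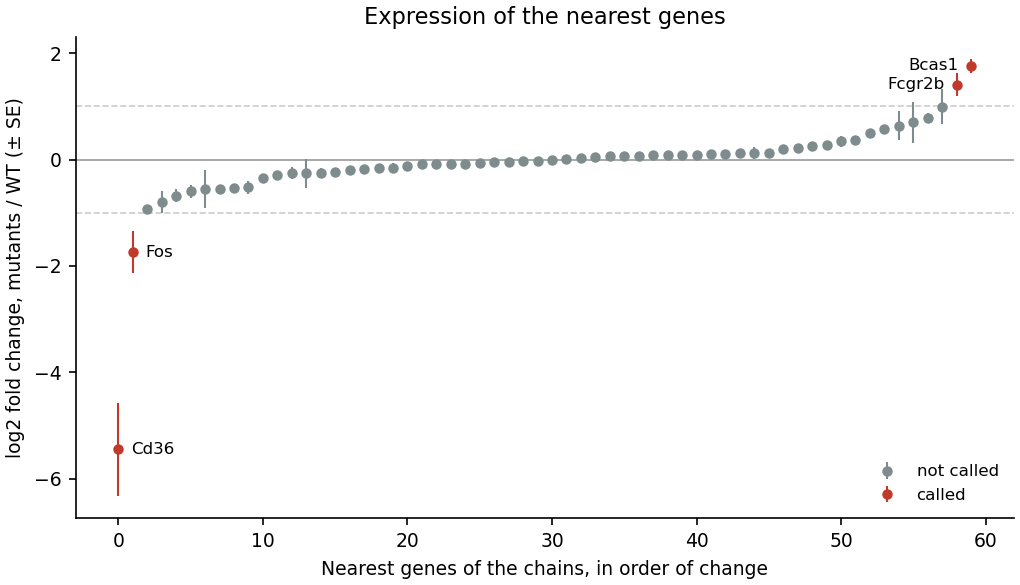
Log2 fold change of the 60 tested nearest genes (points) in the mutants against WT (y axis, with the standard error as bars), in order of change (x axis, rank), with the 4 called genes in red and the 2-fold limits dashed. Most points lie between the dashed lines, and Cd36 at -5.45 and Fos at -1.74 stand apart below.

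The clones gave similar counts, and the comparisons of each clone with WT share the WT libraries. In Mut18 2 nearest genes were higher (background 2.79%) and 2 lower (background 4.74%). In Mut43 3 were higher (background 3.49%) and 2 lower (background 6.81%). The additional gene in Mut43 was Gpx6, a glutathione peroxidase, with 8.79 and 20.6 normalized counts in the WT libraries, 22.0 and 25.3 in Mut18 and 37.6 and 32.5 in Mut43 (log2 fold change 1.25 ± 0.34 in Mut43, edgeR adjusted p = 0.0035). Without WT replicate 1 its edgeR adjusted p was 0.09, and without Mut43 replicate 1 it was 0.068. Between the clones, 0 of 60 nearest genes were higher in Mut43 (background 0.00711%) and 0 were lower (background 0%) by edgeR, with 3 at an unadjusted p under 0.05.

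Chains are rare near any gene: of 13383 protein-coding genes of the count table on the chromosomes used, 102 (0.762%) had a chain within 50 kb of a TSS. The lists below are read against that share, and they are too short to stand apart from it by their counts. Of 20 ESC transcription factors, 18 lie on the chromosomes used, and none had a chain within 50 kb. All 18 had distal open regions there, of which the longest chain held 3. Of 16 signalling genes none had a chain. Of 19 chromatin genes only Dnmt3b, a de novo DNA methyltransferase, did, and of 19 lineage regulators only Cdx2, the regulator of trophectoderm and intestine. In expression, 1 of the 20 ESC transcription factors was higher (Prdm14) and 0 were lower by edgeR. Of the 20 signalling genes 1 was higher (Lefty2) and 1 lower (Id2), of the 20 chromatin genes 0 were called, and of the 12 lineage regulators tested 2 were higher and 3 lower. The shares called among all tested genes, 3.28% and 5.65%, apply to these counts as well.

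Dnmt3b had 8836 and 9094 normalized counts in the WT libraries, 5269 and 5331 in Mut18 and 5151 and 5162 in Mut43, with a log2 fold change of -0.78 ± 0.04 (edgeR adjusted p = 9.7e-13) that was under 2-fold. The chain within 50 kb of it, at chr2:153593198-153604191, had Commd7 as its nearest gene and held 3 and 4 of its 4 members in Mut18 and 3 and 3 in Mut43. Cdx2 had 67.4 and 59.8 normalized counts in the WT libraries, 47.1 and 30.3 in Mut18 and 27.5 and 40.6 in Mut43 (-0.80 ± 0.21, edgeR adjusted p = 0.0036). Its chain at chr5:147292926-147305137 began 2133 bp from its TSS and held 3 and 3 of 4 members in Mut18 and all 4 in both Mut43 lists. For both genes every mutant library lay below both WT libraries (background 30.4% of all tested genes). The median pileup of the Cdx2 chain was 71 and 54 reads in WT and from 49.5 to 58 in the mutants. Those values, which are not scaled for depth, overlapped.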

How the data were processed

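WT, Mut18 and Mut43 mouse ESCs (2 libraries each) were assigned from the sample titles. For ATAC-seq, the authors deposited 1 MACS2 peak list per library, without pooling, with the fold enrichment (a ratio over local background), the -log10 p and the -log10 q of each peak. All -log10 q values exceeded 6. The mRNA-seq table deposited by the authors holds unnormalized whole-number counts for 16263 genes. Reads had been aligned to mm10 joined to the fly genome dm6, and the submitters' processing notes name Bowtie2 2.3.4.2, SAMtools, deepTools 3.3.0, MACS2, STAR and DESeq2. No authors' comparison was used.

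Regions were merged, filtered and chained as the report states, with TSSs from GENCODE vM21. Gene symbols matched the annotation for 15644 genes directly and for 475 by a RefSeq synonym, and 140 had no match. Presence was compared by exact sign-flip permutation over the 4 mutant libraries, and the ranks of members against others are given as a description. Counts were tested with edgeR 4.0.16 (glmQLFit and glmQLFTest, TMM, filterByExpr at a minimum count of 10) in R 4.3.3 over 14061 genes, and DESeq2 1.42.0 was an alternative. Normalized counts are counts divided by the relative effective library size. On simulated counts for WT against the mutants over 14061 genes, 90% of 2-fold and 99% of 4-fold changes passed an edgeR adjusted p below 0.05. Of the genes that passed, 7.35% were false. The limit of a change over 2-fold was not applied to the simulated counts, so these shares do not describe the calls above. Counting error is included in the spread between libraries.

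The members, lists and tests were chosen with earlier results of these data known. Named genes were the nearest genes of the 10 largest chains, listed genes with a chain within 50 kb, and the called nearest genes of at least 50 normalized counts; Gpx6, Igf2bp3, Dmrt1 and the least retained chains were named after their values were seen. The pileup recovery, the search for near-identical copies (at least 10 shared 16-mers, then local alignment, both strands) and the bins by pileup were added after the data were seen. Replicate numbers did not pair the libraries (correlations of -0.01 to 0.03 over 14061 genes). Replicates of a line differed beyond sampling noise (chi-square per degree of freedom 1.81 to 3.08). The ChIP-seq samples were not analysed here.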

Additional observations from a re-analysis of the deposited data

Results flagged for a closer look

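Of 22 values examined over the 4 mutant libraries, 3 had a library far from the other 3 by Dixon's ratio at its 95% critical value for 4 samples. Chance flags about 1 in 20 groups. The median pileup percentile of the clustered regions was 78.1 in Mut18 replicate 2 and between 76.1 and 76.3 in the other mutant libraries. Ezh2 had 2635 normalized counts in Mut18 replicate 1 and between 2795 and 2807 in the others, and Fcgr2b had 67.0 in Mut43 replicate 2 and between 55.0 and 56.6 in the others.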

How the results depend on the processing

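The number of chains and members followed the rule: 12 and 49 with a gap of 2.5 kb, 529 and 2455 with 10 kb, 446 and 1448 with chains of at least 3, 8 and 62 with chains of at least 6, and 17 and 70 with equal numbers of peaks by fold. Using 1 WT library to choose the regions gave from 79 to 207 chains and from 365 to 923 members, the higher without WT replicate 2. The excess of members in presence was from -0.58 to 3.62 points with 1 library left out, and -0.58 without WT replicate 2. It was -0.67 with chains of at least 3, -2.75 in bin 4 by fold, and -6.12, -19.3 and -2.37 in bins 2, 3 and 4 by pileup. The rank difference was from -41.6 to -38.5 with 1 library left out, 29.4 by pileup, 0.20 by -log10 q and 4.25 in bin 3 by fold. The clone difference in share was -2.04 with a gap of 2.5 kb, -0.081 with 10 kb, -0.41 with chains of at least 3, 0 with equal peak numbers by fold, and from 0.41 to 0.92 with a WT library left out. The clone difference in rank was 1.77 with equal peak numbers by fold, 0.092 with equal numbers by -log10 q, 0.12 where the mutant peak had to cover the WT summit, 0.31 without chromosome 6, and from -0.54 to 0.61 with a WT library left out. The causes were not tested.

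For nearest genes, lower calls fell to 1 in all 3 comparisons with WT (both clones together, Mut18, Mut43) under DESeq2 (Fos, adjusted p = 0.056), with every gene within 50 kb and with the nearest protein-coding gene of the annotation. With 1 library left out, they ran from 0 to 2 and higher calls from 2 to 3 in each of the 3 comparisons, with 0 in both directions between the clones. Without a filter on low counts 4 were higher. By adjusted p alone, 13 were higher and 16 lower (12 and 14 in Mut18, 14 and 18 in Mut43). With a gap of 10 kb, 17 and 22 were called (15 and 13, 19 and 26), and with chains of at least 6, 0 in each. With the replicate number as a block, 2 were higher and 2 lower, 2 and 2 in Mut18, 3 and 2 in Mut43 and 0 and 0 between the clones, so the block changed no count. With 1 library left out, the log2 fold change ran from -2.53 to 0.16 for Fos, from -0.032 to 0.083 for Cd9 and from -0.083 to 0.0020 for Rbx1, each reversed without WT replicate 1. Of the 397 alternative values, 321 kept their direction and side of the threshold or their size, 46 moved, 20 reversed, 9 lost the threshold and 1 (Pdia4, adjusted p = 0.027 without Mut43 replicate 2) gained it. ATAC-seq read depth is not in the files used here, and 4 mutant libraries allow no p under 0.13.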
